A study of Mus musculus with 11 samples.

Results

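Transcript levels of 8 genes that steer neutrophil traffic were followed in the pancreas and the epididymal adipose tissue of mice with obesity-related alcohol-induced acute pancreatitis (OA-AP). The genes are the chemokines Cxcl1, Cxcl2, Cxcl3 and Cxcl5, their receptor Cxcr2, the growth factor Csf3, the chemokine Cxcl12 and its receptor Cxcr4. They were picked by gene symbol, and all 8 were found among the 54532 genes of the pancreas table and the 46078 genes of the adipose table. RNA sequencing gave 11 libraries, of which 5 were of pancreas (2 control, 3 OA-AP) and 6 of adipose tissue (3 of each group). All mice were male, wild type C57BL/6 animals aged 16 weeks. The control group was fed 10 kcal% fat for 12 weeks and given saline. The OA-AP group was fed 60 kcal% fat for 12 weeks and received 2 intraperitoneal injections of ethanol at 2 g/kg, 1 h apart, and tissue was taken 12 h after the first injection. Diet, ethanol and pancreatitis differed together between the groups and cannot be told apart.

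Neutrophils circulate in the blood and enter a tissue along gradients of chemokines, small secreted proteins that bind to receptors on the leukocyte surface. Cxcl1, Cxcl2, Cxcl3 and Cxcl5 are made by stromal, epithelial and immune cells under inflammatory signals and attract neutrophils through Cxcr2, whereas Csf3 (granulocyte colony-stimulating factor) drives the production and release of neutrophils in the bone marrow. Cxcl12 is made constantly by stromal cells of many tissues and acts through Cxcr4 to retain leukocytes, and in the bone marrow this pair holds neutrophils back until Cxcr2 ligands and Csf3 set them free.

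In adipose tissue, all 4 Cxcr2 ligands, Cxcr2 and Csf3 rose in OA-AP, while Cxcl12 and Cxcr4 did not pass the test. In the pancreas, Cxcl12 fell from a mean of 28.8 to 4.96 CPM (counts scaled to the depth of the library) and Cxcr4 rose from 0.543 to 3.11 CPM. Cxcl1, Cxcl2, Cxcl5 and Cxcr2 were higher there in every OA-AP library than in either control library, as were 32.9% of tested genes. For Cxcl2 this rested on 2 counts in OA-AP replicate 2 against 1 and 0 counts in the controls. These 4 genes were very unequal among the 3 OA-AP mice and did not pass the test. The change of Cxcl12 and Cxcr4 differed between the tissues.

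A level in CPM relates the reads of a gene to those of its library, after scaling with the TMM method separately in each tissue. Libraries held 14188832 to 17238919 counts in the pancreas and 20825177 to 27928097 in adipose tissue, so that 3 counts, the limit of detection used here, corresponded to 0.102 to 0.299 CPM. A gene was called changed at a Benjamini-Hochberg adjusted p-value under 0.05 in edgeR's quasi-likelihood test and a fold change of at least 1.5. In the pancreas, the 36 acinar markers took 58.6% to 80.5% of the counts, and the adipocyte markers Cidec, Plin1, Lep and Retn were at 0 in both control libraries. In the OA-AP pancreas, Pck1 and Retn were at 0 in every library, whereas Cidec, Plin1 and Lep were not. The 12 adipocyte markers summed to 126 to 150 CPM in the control pancreas and 110 to 122 CPM in the OA-AP pancreas. In adipose tissue they summed to 40690 to 60045 CPM. Control adipose replicate 2 stood apart, with 1.07% of its counts on acinar markers against at most 0.0260% in the other adipose libraries and the highest lymphocyte marker sum of 60.1 CPM. Pancreas OA-AP replicate 3 also stood apart. In that library 40 of 12884 tested genes, or 0.310%, exceeded 5 times the level of both other OA-AP libraries, and 4 of the 6 tested genes of the group described here, 4 of 7 tested neutrophil markers and 4 of 36 acinar markers (Gm10334, Gm5771, Prss1 and Prss3) were among them.

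**Figure D1:**
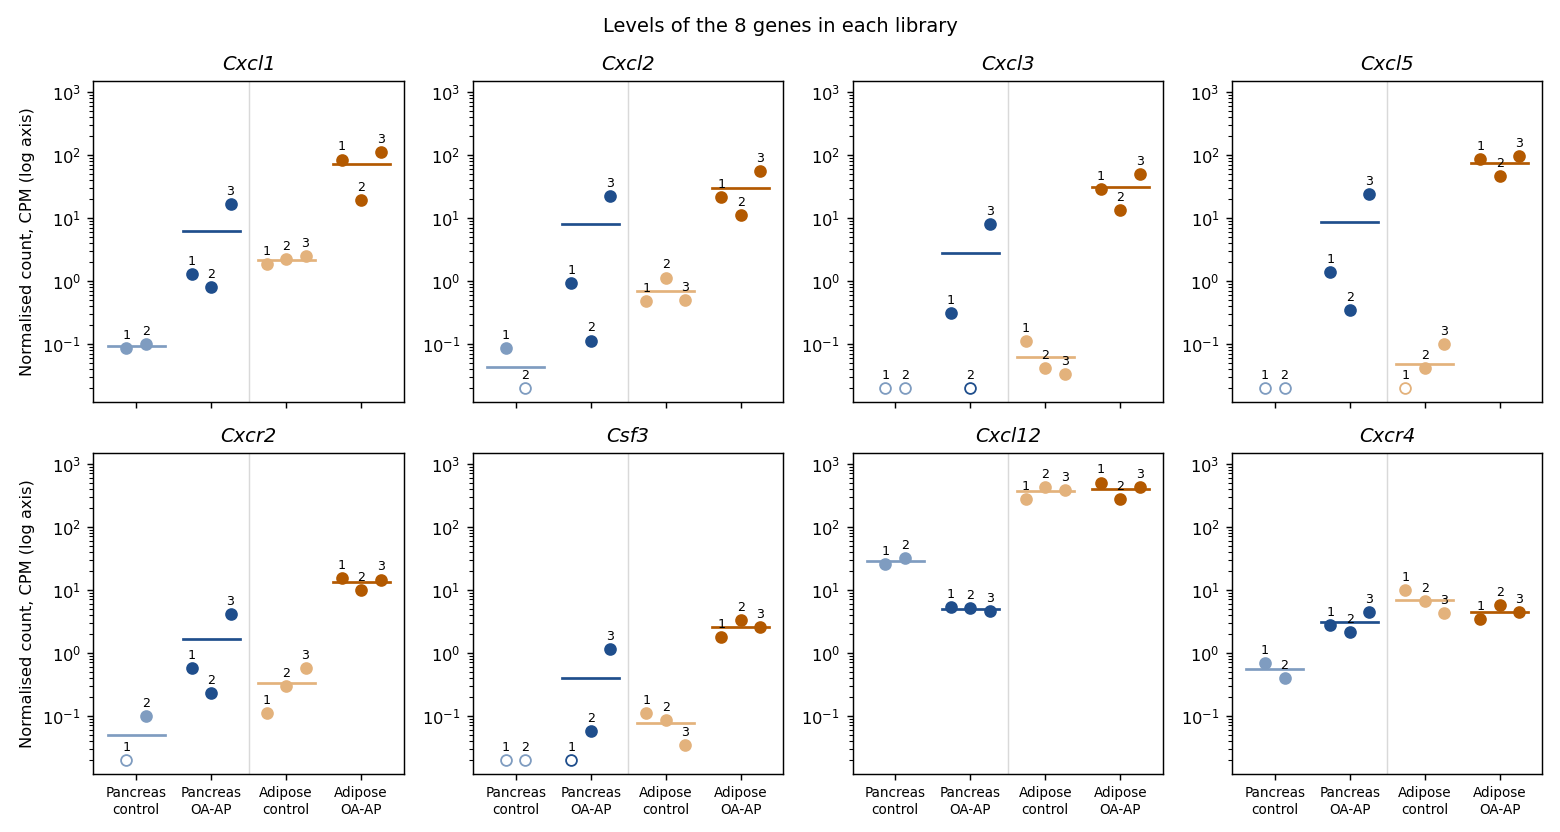
Level of each of the 8 genes in every library, as CPM on a log axis, with a line at the group mean and the replicate number above each point. Open symbols are libraries with 0 counts, drawn at the foot of the axis. In adipose tissue the OA-AP points of Cxcl1, Cxcl2, Cxcl3, Cxcl5, Cxcr2 and Csf3 lie above all control points, and in the pancreas replicate 3 lies far above the other OA-AP points for the same 6 genes.

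The 4 ligand genes lie together on mouse chromosome 5 (GRCm38), within 146579 bases from 90759360 to 90905938 and all on the plus strand. Cxcl5 is at chr5:90759360-90761624, Cxcl3 at chr5:90786103-90789600, Cxcl1 at chr5:90891241-90893115 and Cxcl2 at chr5:90903871-90905938. Cxcr2 is at chr1:74153989-74161246 on the plus strand, Cxcr4 at chr1:128588199-128592293 on the minus strand, Csf3 at chr11:98701263-98703629 and Cxcl12 at chr6:117168535-117181367, both on the plus strand. The stretch directly before the gene is shown for Cxcl1, Cxcl2 and Cxcl3, which rose together in adipose tissue, and for Cxcl12, which did not. RefSeq promoter windows on GRCm38.p6 (250 bases before to 50 bases after the start) were found for 6 of the 8 genes and not for Cxcl5 and Csf3. Capitals mark letters that match an NF-kB-like pattern (GGG, any 3 letters, then TTCC), or TATAAA, the TATA box, on either strand. The stretches are chr5:90891095-90891240, chr5:90903749-90903870, chr5:90785951-90786100 and chr6:117168385-117168534, each read on the plus strand.
Cxcl1: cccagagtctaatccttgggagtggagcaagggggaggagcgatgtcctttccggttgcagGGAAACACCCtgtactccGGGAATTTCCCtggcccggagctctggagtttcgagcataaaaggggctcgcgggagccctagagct
Cxcl2: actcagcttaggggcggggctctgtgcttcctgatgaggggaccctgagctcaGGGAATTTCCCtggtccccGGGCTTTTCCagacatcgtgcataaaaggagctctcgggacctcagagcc
Cxcl3: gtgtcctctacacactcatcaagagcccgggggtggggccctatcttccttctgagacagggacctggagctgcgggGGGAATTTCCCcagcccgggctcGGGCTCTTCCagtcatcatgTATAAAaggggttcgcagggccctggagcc
Cxcl12: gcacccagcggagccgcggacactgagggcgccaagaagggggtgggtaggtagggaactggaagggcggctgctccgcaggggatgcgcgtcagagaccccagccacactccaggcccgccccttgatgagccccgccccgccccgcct

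The 10 letters GGGAATTTCC stand in all 3 ligand promoters, 67 to 58 bases before the deposited gene start in Cxcl1, 69 to 60 in Cxcl2 and 75 to 66 in Cxcl3, and overlap in each with a match on the other strand shifted by 1 base. A further match to the NF-kB-like pattern lies at 85 to 76 bases in Cxcl1 (on the other strand), at 50 to 41 in Cxcl2 and at 52 to 43 in Cxcl3. The RefSeq start that places each window is not the deposited gene start, and the first letter of GGGAATTTCC lies 71, 97 and 73 bases before the RefSeq start in Cxcl1, Cxcl2 and Cxcl3. Of 32851 mouse promoter windows of this length, 5.56% held the NF-kB-like pattern. TATAAA was found 30 to 25 bases before the RefSeq start of both Cxcl3 and Cxcr4 and in 13.6% of all windows. Neither the C/EBP-like pattern TTGCNNAA, held by 10.8% of windows, nor the AP-1 pattern TGANTCA, held by 7.81%, was found in any of the 6 windows, and no pattern was found in those of Cxcr2 and Cxcl12. These are matches of letters and do not show that a factor binds there.

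In adipose tissue, the question was which neutrophil-directing signals differed in the fat of OA-AP mice. Of the 8 genes, 6 rose and none fell, beside a background of 12.1% of the 15839 tested genes called higher and 13.0% called lower in OA-AP. Levels of all 6 were higher in every OA-AP library than in every control library, as were those of 26.4% of tested genes, while 26.0% were lower throughout. In bulk tissue, fewer cells of a type and less RNA per cell cannot be told apart.

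Cxcl1, a ligand known as KC in the mouse, stood at 1.85, 2.29 and 2.48 CPM in control fat and at 85.2, 19.5 and 110.25 CPM in OA-AP fat. The lowest OA-AP library, replicate 2, was still well above all controls. The mean went from 2.21 ± 0.33 (SD, n = 3) to 71.7 ± 46.9 CPM (SD, n = 3), and the fitted log2 fold change was 5.02 ± 0.68 (standard error, adjusted p = 0.00269 in edgeR). Its control level rested on 50, 54 and 73 counts, more than that of the other 3 ligands.

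Cxcl2, known as MIP-2, followed at 0.480, 1.14 and 0.511 CPM in the controls and 21.6, 11.3 and 56.1 CPM in OA-AP. Replicate 3 was the highest and replicate 2 the lowest of the OA-AP libraries, as for Cxcl1. The log2 fold change was 5.40 ± 0.74 (standard error, adjusted p = 0.00282 in edgeR).

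Cxcl3 was almost silent in control fat, with 3, 1 and 1 counts, against 567, 276 and 997 counts in OA-AP fat, or 29.4, 13.3 and 50.4 CPM. Because 5 control counts carry the denominator, the ratio of summed levels, 492, has a 95% counting interval from 210 to 1517 (exact, counting error only). The gene was called at an adjusted p of 0.000737 in edgeR. Cxcl2 and Cxcl3 share 61 windows of 50 bases, or 6.31% of those in the Cxcl3 transcript and 3.37% of those in the Cxcl2 transcript, and no other pair of the 4 ligands shared such a window. The longest run shared by this pair was 110 bases, shorter than the reads of 150 bases.

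Cxcl5, known as LIX, had 0, 1 and 3 counts in the controls and 1652, 974 and 1893 counts in OA-AP, or 85.6, 46.8 and 95.6 CPM. All OA-AP libraries were far above the controls, and replicate 2 was again the lowest. The ratio of summed levels was 1511 with a 95% counting interval from 590 to 5546 (exact, counting error only), and the adjusted p was 0.000218 in edgeR.

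Cxcr2, the receptor of these ligands and a gene of mature neutrophils, stood at 0.111, 0.297 and 0.579 CPM in control fat and at 15.5, 9.90 and 14.5 CPM in OA-AP fat. The groups were far apart, and the OA-AP libraries lay within 1.56-fold of each other. The log2 fold change was 5.29 ± 0.45 (standard error, adjusted p = 0.000562 in edgeR). Cxcr1, the related receptor, had 0, 1 and 1 counts in the controls and 8, 4 and 9 in OA-AP and was not tested, being too low.

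Csf3 went from 3, 2 and 1 counts in the controls to 34, 68 and 51 counts in OA-AP, or 1.76, 3.27 and 2.58 CPM. Here replicate 2 was the highest of the OA-AP libraries, whereas it was the lowest for the 4 ligands and Cxcr2. The ratio of summed levels was 34.1 with a 95% counting interval from 15.3 to 94.4 (exact, counting error only), and the adjusted p was 0.000624 in edgeR.

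Cxcl12 had the highest CPM of the 8 genes in every fat library. Its mean per kilobase of deposited gene length was also the highest in both groups. In OA-AP replicate 3, however, Cxcl1 lay above it on that scale (58.8 against 52.3). In CPM, Cxcl12 stood at 273, 433 and 385 in the controls and at 502, 278 and 428 in OA-AP. The groups overlapped, and the log2 fold change was 0.15 ± 0.25 (standard error, adjusted p = 0.680 in edgeR), with a sign that turned to -0.01 when library totals alone set the scale. Cxcr4 stood at 10.001, 6.65 and 4.25 CPM in the controls and 3.42, 5.63 and 4.34 CPM in OA-AP, overlapping as well, and its log2 fold change was -0.64 ± 0.34 (standard error, adjusted p = 0.175 in edgeR). A p-value above the threshold does not show that these levels were equal.

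**Figure D2:**
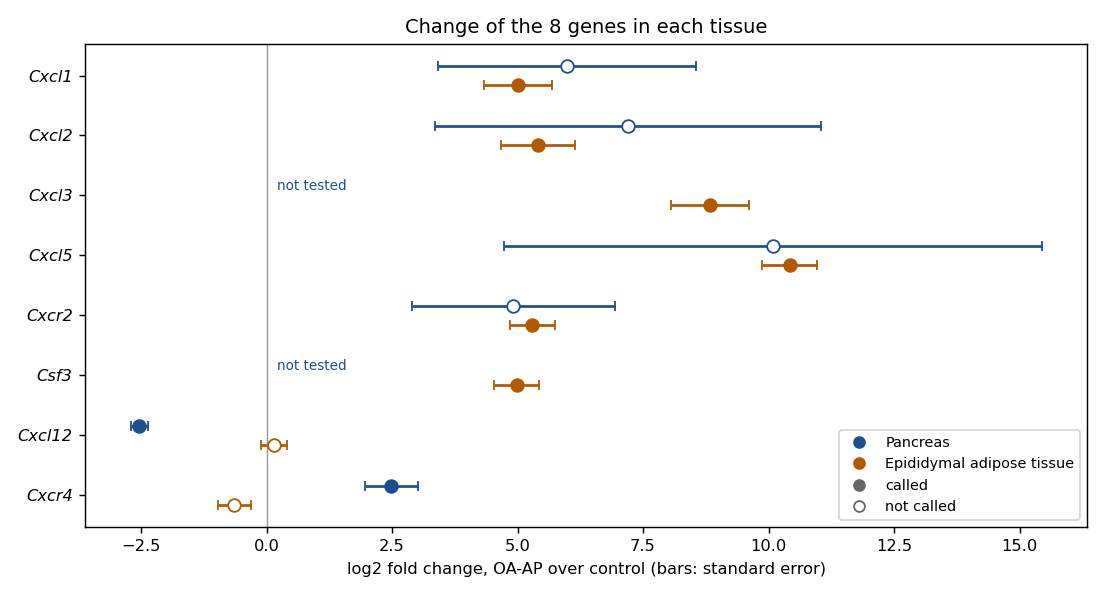
Log2 fold change of OA-AP over control for each of the 8 genes in the pancreas and in adipose tissue, with bars of 1 standard error and filled symbols for called genes. Adipose values of the ligands, Cxcr2 and Csf3 lie between 4.98 and 10.43 with short bars, the pancreas values of Cxcl1, Cxcl2, Cxcl5 and Cxcr2 have long bars and are open (Cxcl3 and Csf3 were not tested there), and Cxcl12 and Cxcr4 are filled in the pancreas alone; fitted values of genes with 0 counts in the control libraries, such as pancreas Cxcl5, depend on the prior count.

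The 6 calls in fat held with each library left out in turn, control replicate 2 with its acinar counts included, with adjusted p-values of at most 0.0164 in edgeR. A filter of 10 counts in every library left Cxcl1 and Cxcl2 alone of the 6, since the other 4 did not reach that count in every control fat library.

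The make-up of the ligands changed along with their amount. Per kilobase of the gene length the authors deposited, Cxcl1 made up 78.9%, 67.5% and 81.0% of the CPM of the 4 ligands in the control fat libraries against 41.2%, 23.2% and 38.8% in OA-AP fat. Cxcl5 went from 0%, 1.26% and 3.35% to 41.7%, 56.1% and 33.8% on the same scale. Neither set overlapped between groups, and Cxcl3 held 0.595% to 2.54% in controls and 7.62% to 9.49% in OA-AP. The Cxcl5 share depended on the length used, and with the longest coding transcript in GENCODE M21, an alternative chosen after the data were seen, it was 23.7% to 42.9% in OA-AP fat, with Cxcl3 then at 15.7% to 19.4% against 1.12% to 4.73% in the controls and Cxcl1 at 29.5% to 48.5% against 77.8% to 87.5%. By mean CPM per kilobase, the order in control fat was Cxcl12 (44.5), Cxcr4 (3.85), Cxcl1 (1.18), Cxcl2 (0.344) and Cxcr2 (0.108), Csf3 (0.0541), Cxcl5 (0.0259) and Cxcl3 (0.0178), where the ranges of neighbours overlapped among the 4 lowest. In OA-AP fat it was Cxcl12 (49.2), Cxcl5 (40.8), Cxcl1 (38.2), Cxcl2 (14.3), Cxcl3 (8.86), Cxcr2 (4.36), Cxcr4 (2.47) and Csf3 (1.79), where the ranges of neighbours overlapped except between Cxcr2 and Cxcr4. The order in OA-AP fat depended on the length too. Per kilobase of the coding transcript, Cxcl1 exceeded Cxcl12 in OA-AP replicates 1 (89.4 against 89.2) and 3 (115.7 against 76.0). In OA-AP replicate 2 it lay below Cxcl12 (20.5 against 49.3).

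**Figure D3:**
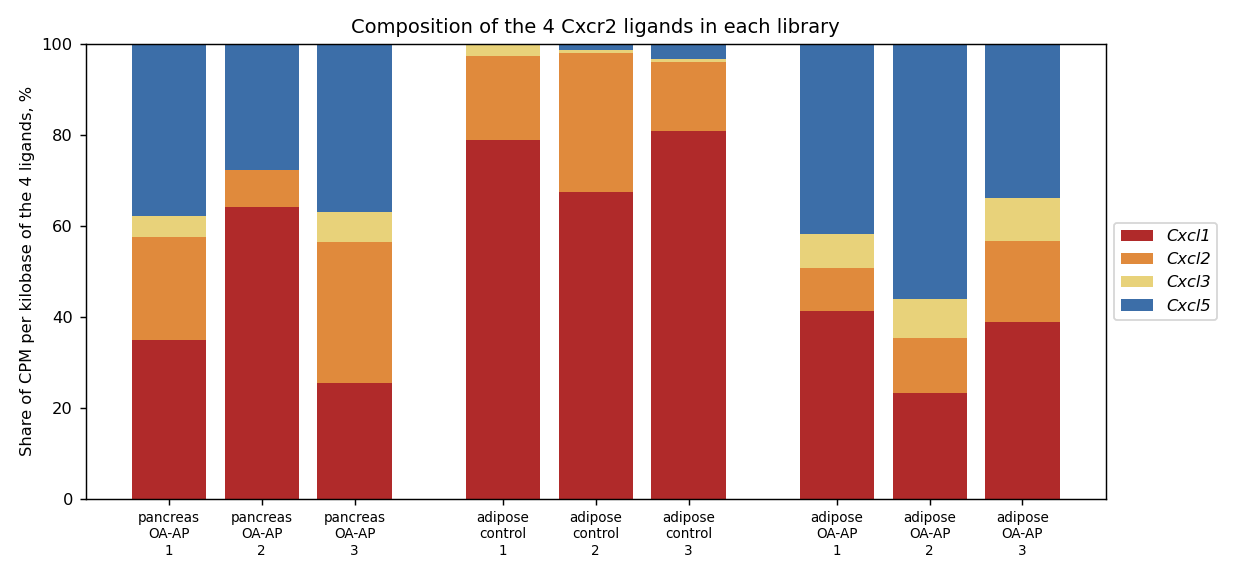
Share of Cxcl1, Cxcl2, Cxcl3 and Cxcl5 in the CPM per kilobase of the 4 ligands, in percent, with 1 bar for each library; pancreas control libraries, with at most 2 ligand counts each, are left out. Cxcl1 fills 67.5% to 81.0% of the control fat bars and 23.2% to 41.2% of the OA-AP fat bars, where Cxcl5 fills 33.8% to 56.1%.

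In the pancreas, the organ that is injured in the model, 6 of the 8 genes were expressed highly enough to be tested. Of these, 1 fell (Cxcl12) and 1 rose (Cxcr4), beside a background of 29.8% of 12884 tested genes called, 13.5% lower and 16.2% higher.

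Cxcl12 stood at 25.7 and 31.9 CPM in the control pancreas (300 and 320 counts) and at 5.30, 5.03 and 4.55 CPM in OA-AP (101, 88 and 87 counts). The 3 OA-AP libraries agreed within 1.17-fold and all lay far below the controls. The mean went from 28.8 ± 4.36 (SD, n = 2) to 4.96 ± 0.38 CPM (SD, n = 3), and the fitted log2 fold change was -2.54 ± 0.17 (standard error, adjusted p = 9.19e-05 in edgeR), and this call held under all 14 alternatives, with log2 fold changes from -2.68 to -1.81. The weakest came with library totals alone as the scale, which moved the median over the tested pancreas genes from 0.04 to 0.75.

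Cxcr4 rose from 0.686 and 0.399 CPM (8 and 4 counts) to 2.73, 2.12 and 4.50 CPM (52, 37 and 86 counts). Every OA-AP library was above both controls, and replicate 3 was the highest. The log2 fold change was 2.49 ± 0.52 (standard error, adjusted p = 0.00870 in edgeR). With 12 control counts behind it, the ratio of summed levels was 5.68 with a 95% counting interval from 3.17 to 11.2 (exact), and the call was lost without control replicate 1 or without control replicate 2. The CPM ratio of Cxcl12 to Cxcr4, which is not corrected for length and serves to compare libraries, was 37.5 and 80.0 in the controls and 1.94, 2.38 and 1.01 in OA-AP.

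The 4 ligands were at or near 0 in the control pancreas. Cxcl1 had 1 and 1 counts there and 25, 14 and 322 counts in OA-AP, or 1.31, 0.801 and 16.8 CPM. Cxcl2 had 1 and 0 counts and then 18, 2 and 435, or 0.945, 0.114 and 22.8 CPM. Replicate 3 thus held most of the OA-AP counts of both genes, and replicate 2 the fewest.

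Cxcl5 had 0 counts in both controls and 27, 6 and 467 in OA-AP, which makes its OA-AP mean at least 31.4-fold higher than the level of 3 counts per library; without replicate 3, which held 467 of these counts, it was at least 3.16-fold higher. Cxcl3 had 0 counts in both controls and 6, 0 and 155 in OA-AP, a mean at least 10.1-fold higher than 3 counts per library that replicate 3 carried almost alone, the mean of the other OA-AP libraries (0.158 CPM) lying under that level. Csf3 had 0 counts in both controls and 0, 1 and 22 in OA-AP, too few for a fold change, and it was not tested, as was Cxcl3.

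Cxcr2 had 0 and 1 counts in the controls and 11, 4 and 78 in OA-AP, or 0.578, 0.229 and 4.08 CPM. Cxcl1, Cxcl2, Cxcl5 and Cxcr2 were higher in every OA-AP library than in both controls, as were 32.9% of tested genes. None of the 4 passed the test, with adjusted p-values of 0.144, 0.221, 0.244 and 0.110 in edgeR. The ratio of summed levels over 2 control counts was 70.3 for Cxcl1, with a 95% counting interval from 19.3 to 583, and over 1 control count it was 177 for Cxcl2 (31.7 to 7018) and 36.2 for Cxcr2 (6.35 to 1446), all for counting error only. Without replicate 3, the OA-AP means were 1.06 CPM for Cxcl1, 0.530 CPM for Cxcl2 and 0.403 CPM for Cxcr2, against control means of 0.0928, 0.0429 and 0.0499 CPM.

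Leaving out OA-AP replicate 3 changed these calls. Without it, 4 of the 6 tested genes were called (Cxcl1, Cxcl5 and Cxcr4 higher and Cxcl12 lower, with 33.2% of all tested genes called, 16.5% higher and 16.7% lower), with log2 fold changes of 3.36 ± 0.84 for Cxcl1 (standard error, adjusted p = 0.00465 in edgeR) and 6.69 ± 1.73 for Cxcl5 (adjusted p = 0.00674). Without replicate 2, Cxcr2 was called too (adjusted p = 0.0331 in edgeR). DESeq2, the test of the study's own methods, called Cxcl1, Cxcl2, Cxcl5 and Cxcr2 with all 5 libraries (adjusted p = 0.00797, 0.0313, 0.0123 and 0.0182), so that these calls depended on the test. The call of Cxcr2 also depended on scaling and filter. In edgeR it was called with library totals alone (adjusted p = 0.0421) and without a filter on low counts (0.000198). Without that filter Csf3 was called too (adjusted p = 0.0267 in edgeR), with 22 counts in OA-AP replicate 3. Over all genes, DESeq2 called 3598 of 14431 tested, library totals 6349 of 12884 and no filter 4487 of 23572.

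Neutrophil markers are set beside the ligands in the pancreas. The 20 markers, which include S100a8, S100a9, Retnlg and Mmp8, summed to 2.40 and 2.79 CPM in the controls and to 17.0, 5.78 and 120 CPM in OA-AP, so that replicate 2 was the lowest and replicate 3 the highest, as for the ligand sum of 3.99, 1.26 and 72.1 CPM. Of the 20, 9 were at 0 in both control libraries (Camp, Cd177, Elane, Ly6g, Mpo, Retnlg, Stfa2l1, Trem1 and Wfdc21). Among all 20, 7 passed the filter on low counts and none of these was called. Without that filter 5 of 20 were called, and by DESeq2 7 of 13. Over all tested genes, these 2 settings called 4487 of 23572 and 3598 of 14431. S100a9, a calcium-binding protein of neutrophil granules and cytosol, had 3 and 4 counts in the controls and 78, 19 and 778 in OA-AP. Replicate 3 exceeded 5 times the level of both other OA-AP libraries for 9 of the 20 markers and not for the other 11. The ratio of replicate 3 to the mean of replicates 1 and 2 was 15.7 for S100a9, 8.73 for S100a8, 25.2 for Retnlg and 36.1 for Trem1, against 0.374 for Ltf and 0.783 for Padi4, at 16 counts or fewer, and 15.9 for Cxcl1, 42.9 for Cxcl2, 27.7 for Cxcl5 and 10.1 for Cxcr2. Macrophage markers, in contrast, summed to 73.1, 76.2 and 75.6 CPM in OA-AP, between the control sums of 91.2 and 46.1 CPM. The part of neutrophil content in the ligand levels was not tested.

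In adipose tissue, 11 of the 15 neutrophil markers that passed the filter on low counts rose and 2 fell. Of all tested genes there, 12.1% were called higher and 13.0% lower. With at least 10 counts in every library, 7 of the markers were tested, of which 4 rose and 1 fell. Il1r2, the decoy receptor of interleukin-1, went from 0.338 ± 0.031 to 28.2 ± 2.46 CPM (SD, n = 3 each), and Mmp8, the neutrophil collagenase, from 0.264 ± 0.156 to 26.6 ± 8.14 CPM. The pair that fell, Elane and Padi4, encodes neutrophil elastase and a histone-modifying enzyme. The 20 markers summed to 43.1, 55.7 and 53.4 CPM in the controls and 243, 242 and 248 CPM in OA-AP, and none was at 0 in all libraries of either group. The marker sum was almost level across the OA-AP fat libraries, in which the ligand sum was 222, 90.9 and 312 CPM. Single markers were not all level. The highest OA-AP library exceeded the lowest 1.18-fold for S100a8, 1.21-fold for S100a9 and 1.18-fold for Il1r2. Trem1 ran from 4.13 CPM in replicate 2 to 14.3 CPM in replicate 3. Here too, the part of neutrophil content in the ligand levels was not tested.

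**Figure D4:**
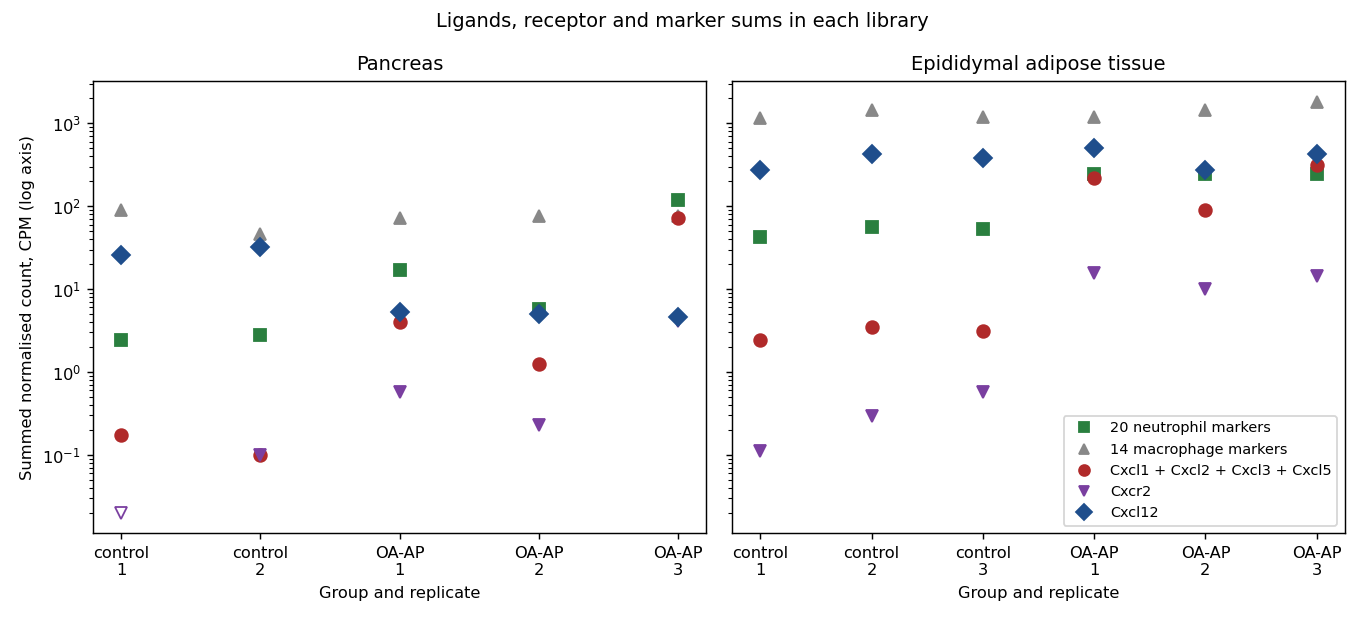
Summed CPM of the 20 neutrophil markers, the 14 macrophage markers and the 4 Cxcr2 ligands, with Cxcr2 and Cxcl12, in each library on a log axis; the open symbol is a library with 0 counts of Cxcr2. In the pancreas the neutrophil sum (5.78 to 120 CPM), the ligands (1.26 to 72.1 CPM) and Cxcr2 are all highest in OA-AP replicate 3, while among the OA-AP libraries Cxcl12 (4.55 to 5.30 CPM) and the macrophage sum (73.1 to 76.2 CPM) differ little; in OA-AP fat the neutrophil sum stays between 242 and 248 CPM.

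Whether a gene changed differently in fat and pancreas was tested with all 11 libraries in 1 fit. The change differed for Cxcl12 and for Cxcr4 among the 8, beside a background of 21.3% of 17046 tested genes. The adipose change minus the pancreas change was 2.67 ± 0.33 on the log2 scale for Cxcl12 (standard error, adjusted p = 0.000262 in edgeR), which fell in the pancreas and not in fat, and -3.15 ± 0.68 for Cxcr4 (adjusted p = 0.00687), which rose in the pancreas and not in fat. Of the alternatives, leaving out pancreas control replicate 2 took the Cxcr4 difference just past the threshold (adjusted p = 0.0503 in edgeR). For the other 6 genes the difference did not pass. Their standard errors ran from 3.98 to 15.95 in edgeR, where they were derived from the log2 fold change and F. In DESeq2, which fits them, they ran from 1.92 to 3.09. Test and way of deriving the error differed together here. At 0 or 1 counts in the control pancreas, these data could not tell similar from different changes.

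Set side by side, with the caveat that the tissues were scaled apart, Cxcl12 stood at 364 ± 82.0 CPM in control fat and 402 ± 114 CPM in OA-AP fat (SD, n = 3 each) against 28.8 and 4.96 CPM in the control and OA-AP pancreas. The CPM ratio of the summed ligands to Cxcl12, again not corrected for length, was 0.328 to 0.730 in OA-AP fat and 0.25 to 15.9 in the OA-AP pancreas, against 0.00313 to 0.00892 over all 5 control libraries. No control library overlapped with an OA-AP library in this ratio. In the pancreas controls, however, the ligand sum rested on 1 count of Cxcl1 in each library and 1 and 0 counts of Cxcl2. The lower Cxcl12 of the OA-AP pancreas also enters the ratio.

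Beyond the 8 genes, 16 further CXC chemokines and CXC receptors were listed. For this list and those that follow, the background in fat was 12.1% of tested genes called higher and 13.0% lower. In the pancreas it was 16.2% higher and 13.5% lower. In fat, 4 of 13 tested genes of this list rose, 3 fell and 6 were not called, with a median log2 fold change of 0.36. Ppbp, a platelet-derived ligand of Cxcr2, rose from 2.11 ± 0.61 to 20.2 ± 8.29 CPM (SD, n = 3 each, adjusted p = 0.00160 in edgeR), Cxcl14 from 3.09 ± 0.94 to 37.96 ± 9.32 CPM (adjusted p = 0.000537), and Ackr1, a scavenger that binds the ligands on venular endothelium and red cells, from 6.66 ± 0.99 to 27.4 ± 9.73 CPM (adjusted p = 0.00261). Cxcl10 also rose, at a log2 fold change of 0.83 ± 0.22. The 3 that fell were the lymphocyte receptors Cxcr3 (from 1.83 to 0.489 CPM), Cxcr5 and Cxcr6 (from 1.78 to 0.686 CPM); lymphocyte markers moved with them, 9 of 11 tested having fallen, from sums of 18.9 to 60.1 CPM in the controls, none of the 12 at 0, to 4.61 to 6.97 CPM. Their part in the receptor levels was not tested.

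In the pancreas, 2 of 6 tested genes of that list rose and none fell. These were Cxcl13, the B-cell chemokine (2 counts in all controls, then 7.25, 5.21 and 1.26 CPM in OA-AP), which was lowest in replicate 3 and whose call was lost without control replicate 1 or 2 (adjusted p = 0.0763 and 0.101 in edgeR), and Cxcl14 (2.61 ± 1.39 CPM, SD, n = 2, to 28.2 ± 9.06 CPM, SD, n = 3, adjusted p = 0.00141 in edgeR). Pf4 and the scavengers Ackr1 and Ackr3 overlapped between groups there, with log2 fold changes of 1.11 ± 0.94, 0.71 ± 0.94 and 1.10 ± 0.72 (standard errors). In fat, Pf4 and Ackr3 overlapped too, at 0.52 ± 0.18 and 0.36 ± 0.13. Cxcr1 had 0 counts in all 5 pancreas libraries, and Cxcr3 and Ppbp, at most 5 and 83 counts, were not tested there.

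Among the other colony-stimulating factors and receptors, 4 of 7 tested rose in fat and 1 fell, with a median log2 fold change of 1.80. Csf3r, the receptor of Csf3 on neutrophils, rose from 5.08 ± 1.83 to 45.2 ± 10.8 CPM (SD, n = 3 each, adjusted p = 0.000991 in edgeR). Csf1, the macrophage growth factor, rose from 79.3 ± 18.7 to 359 ± 129 CPM (adjusted p = 0.00307), and its change exceeded that in the pancreas by 2.35 on the log2 scale (adjusted p = 0.00325). Csf2rb and Csf2rb2, chains of the receptors for Csf2 and related cytokines, rose by 1.87 ± 0.14 and 1.80 ± 0.17 on the log2 scale, and Csf1r fell by 0.81 ± 0.18. In the pancreas Csf2ra rose (1.18 ± 0.38, adjusted p = 0.0454) and Csf1r fell (-1.16 ± 0.30, adjusted p = 0.0197) of 6 tested, but with library totals as the scale 2 rose and none fell. The call of Csf2ra was lost with the DESeq2 size factors (adjusted p = 0.0544 in edgeR), with TMM factors set without acinar markers (0.0514) and without control replicate 1, control replicate 2 or OA-AP replicate 1 (0.165, 0.229 and 0.0949). That of Csf1r was lost without control replicate 1 or OA-AP replicate 1 (0.219 and 0.0625). Csf3r had 7 and 8 counts in the control pancreas and 17, 16 and 177 in OA-AP, higher throughout and again highest in replicate 3, and was not called (adjusted p = 0.230 in edgeR), nor was Csf1 (-0.19 ± 0.26). Csf2 held at most 23 counts in any library and was not tested.

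Of 19 cytokines, receptors and factors that induce the ligands in textbook pathways, 13 of 15 tested rose in fat and none fell, with a median log2 fold change of 1.10. Il6 went up from 0.155 ± 0.092 to 10.4 ± 6.15 CPM (mean ± SD of 3 libraries each, adjusted p = 0.00156 in edgeR), Il1b from 0.740 ± 0.223 to 31.5 ± 23.5 CPM (adjusted p = 0.00438) and Tnf from 0.445 ± 0.107 to 1.75 ± 0.326 CPM (adjusted p = 0.00302). Il1b and Il6 were lowest in OA-AP replicate 2, at 6.35 and 4.09 CPM. The other OA-AP libraries held 35.1 and 52.9 CPM of Il1b and 10.8 and 16.4 CPM of Il6. The ligands were lowest in replicate 2 too, whereas Csf3 was highest there. A link between these levels was not tested. The receptor genes rose as well, Il1r1 from 49.3 ± 11.1 to 518 ± 36.1 CPM (adjusted p = 0.000179) and Il17ra from 21.9 ± 2.24 to 155 ± 36.5 CPM (adjusted p = 0.000347), with the transcription factor Cebpb from 37.2 ± 1.94 to 106 ± 20.4 CPM (adjusted p = 0.000814).

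In the pancreas 7 of 14 tested genes of this list rose and none fell, with a median log2 fold change of 1.18. They were the receptors Il22ra1 (14.9 ± 0.0081 CPM, n = 2, to 83.0 ± 3.44 CPM, n = 3, SD, adjusted p = 4.28e-05 in edgeR), Il17ra (6.36 ± 0.87 to 17.8 ± 2.02 CPM, adjusted p = 0.000989), Il17rc and Tnfrsf1a (17.1 ± 0.38 to 65.8 ± 23.0 CPM, adjusted p = 0.00250), and the factors Cebpb (4.88 ± 0.14 to 22.3 ± 7.35 CPM, adjusted p = 0.00157), Cebpd and Nfkbiz. Of the cytokines, Il1b had 5 and 5 counts in the controls and 13, 4 and 187 in OA-AP, with overlap (adjusted p = 0.312 in edgeR), and Il6 had 1 and 0 counts and then 14, 4 and 241, higher in every OA-AP library without passing the test (adjusted p = 0.188). Il17a, whose receptor rose, held at most 1 count in every library of both tissues, and Tnf at most 1 count in every pancreas library.

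A further list held RNA-binding proteins that set the lifetime of chemokine transcripts. Arid5a, which stabilises inflammatory transcripts, rose in both tissues, from 1.68 ± 0.41 (SD, n = 2) to 20.97 ± 13.1 CPM (SD, n = 3, adjusted p = 0.0105 in edgeR) in the pancreas and from 14.3 ± 2.88 to 63.9 ± 12.2 CPM (SD, n = 3 each, adjusted p = 0.000714) in fat. Zfp36l1, which promotes decay, rose in both as well (log2 fold changes of 1.33 ± 0.28 and 1.15 ± 0.13). The pancreas calls of Arid5a, Zfp36l1 and Hnrnpd were lost without control replicate 1 or 2 (adjusted p of 0.0546 and 0.0646 for Arid5a, 0.0821 and 0.0873 for Zfp36l1, and 0.0617 and 0.057 for Hnrnpd in edgeR), and that of Arid5a without a filter on low counts (0.0789). In all, 5 of 11 tested rose and 1 fell in the pancreas (Hnrnpd, 40.9 to 23.7 CPM), 9 rose and none fell there with library totals as the scale, and 4 of 11 rose in fat, among them Zfp36 (124 to 246 CPM) and Zc3h12a, the RNase Regnase-1 (16.5 to 51.8 CPM). Rc3h1, known as Roquin-1, rose in the pancreas by 1.75 ± 0.22 on the log2 scale and its change was lower in fat by 1.58 (adjusted p = 0.00153 in edgeR).

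Markers of resident cells give the setting of the Cxcl12 values, since stromal and endothelial cells are textbook sources of this chemokine. In the pancreas 3 of 12 endothelial markers fell (Plvap from 47.2 to 30.2, Emcn from 5.65 to 1.86 and Kdr from 20.1 to 11.8 CPM), but with library totals as the scale 3 rose and none fell. Of all 12884 tested pancreas genes, 13.5% were called lower. With library totals, 5843 of all tested genes were called higher and 506 lower. Of the fibroblast and stellate markers, 2 of 12 fell (Pi16 from 5.94 to 1.12 and Cygb from 4.58 to 1.89 CPM), against 1 that fell and 2 that rose with library totals, and of the mesothelial markers 2 of 8 fell (Muc16 and Gpm6a), against none that fell and 1 that rose. The median log2 fold changes of these lists were -0.33, -0.48 and -1.499. Summed levels were 104 to 125 CPM in OA-AP against 131 to 155 CPM in the controls for endothelium, 91.2 to 147 against 111 to 184 CPM for fibroblasts and 26.4 to 28.3 against 21.4 to 40.2 CPM for mesothelium, and no marker of these lists was at 0 throughout a group. The calls of Emcn, Cygb, Muc16 and Gpm6a were lost without control replicate 1, control replicate 2 or OA-AP replicate 1 (adjusted p from 0.0544 to 0.307 in edgeR), that of Kdr without control replicate 2, OA-AP replicate 1 or OA-AP replicate 2 (0.4, 0.131 and 0.0878), that of Cygb also without OA-AP replicate 2 (0.06), that of Plvap without control replicate 2 (0.0846) and that of Pi16 without control replicate 1 (0.0623). Their part in the fall of Cxcl12 was not tested. In fat, none of 12 endothelial markers was called, 5 of 12 fibroblast markers fell (Col1a1, Col1a2, Col3a1, Dcn and Lum, with Dcn going from 1607 to 853 CPM), and Cxcl12 overlapped between the groups.

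Of the immune and epithelial markers, 2 of 11 tested macrophage markers fell in the pancreas (Mertk and Cx3cr1), where 4 rose and 1 fell with library totals as the scale, and in fat 3 of 14 rose (Mrc1 from 117 to 270, Cd163 from 83.9 to 162 and Cd68 from 60.7 to 94.3 CPM) and Timd4 fell. Among the ductal markers in the pancreas Krt18 and Epcam rose and Muc1 fell, and of 36 acinar secretory markers 23 fell and Cuzd1 rose, with Pnlip going from 81734 to 26631 CPM, against 12 that fell and 3 that rose with library totals. In fat Spp1 rose alone among 9 tested ductal markers, and none of 4 tested acinar markers was called. Adipocyte markers in fat fell in 4 cases (Plin1, Acvr1c, Lpl and Cfd) and rose in 1 (Lep) of 12, and 2 of 5 tested rose and 2 fell in the pancreas. With single libraries left out, calls were lost for Mertk (adjusted p = 0.0529 without control replicate 1 in edgeR), Cx3cr1 (0.0774 to 0.178 without either control or OA-AP replicate 2) and Krt18 (0.0548 without control replicate 2) in the pancreas, and in fat for Cd68 (0.108 to 0.121 without control replicate 1, control replicate 3 or OA-AP replicate 3) and Lep (0.0688 to 0.0929 without any 1 control).

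The genes whose log2 CPM followed Cxcl1 most closely over the 11 libraries were Pxn (Pearson's r = 0.991), Trem1 (0.985), Cd177 (0.979), Ier5 (0.978) and Gtpbp4 (0.974). Trem1 and Cd177 are surface proteins of neutrophils and belong to the marker list above. For Cxcl12 they were Rab3gap2 (0.995), Gnai1 (0.992), Orc3 (0.991), Angptl2 (0.991) and Ybx1 (0.989). These correlations describe 11 libraries that share 4 groups in 2 tissues, so the difference between tissues and groups makes up much of them.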

How the data were processed

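RNA sequencing counts of 11 libraries were analysed. The authors cut adapters from the paired-end reads of 150 bases with Trim Galore 0.6.6, checked quality with fastp 0.20.1, mapped the reads to GRCm38 with STAR and assigned them to genes by featureCounts 2.0.1, and deposited whole-number counts per gene without normalization. The annotation release and the strand setting are not given in the sources used here. Gene lengths were those deposited beside the pancreas counts.

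Samples were grouped by their labels, which do not state whether pancreas and adipose samples of the same number share a mouse. Counts of replicates differed by more than counting noise (chi-square per degree of freedom at least 7.56), which may be technical, and p-values measure this spread only. In each tissue, genes were filtered with filterByExpr, scaled with TMM and tested with edgeR 4.0.16 (quasi-likelihood, robust; R 4.3.3) over all tested genes, with Benjamini-Hochberg adjustment. Standard errors were derived as |log2 fold change|/√F. The tissue by condition term was tested on genes in both tables. Log2 CPM for correlations used a prior count of 2. Controls at 0 counts were set to 3 counts per library, and exact 95% intervals of ratios cover counting error only. Scripts were tested on simulated data.

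Alternatives were DESeq2 1.42.0, its size factors in edgeR, library totals, TMM without acinar markers, no filter, a minimum of 10 counts in every sample, other fold thresholds (2 or none), the replicate block and each library left out. Named genes were the 8 members, up to 4 called genes with the smallest p-value of each of 13 lists per tissue, 12 receptors, scavengers, sister ligands and inducers (Cxcr1, Csf3r, Ackr1, Ackr3, Cxcr3, Ppbp, Pf4, Csf1, Csf2, Il17a, Il1b and Tnf), and the 5 genes whose log2 CPM correlated best with Cxcl1 and with Cxcl12; further genes of a list were named after their values were seen. Members and lists were chosen with earlier results of these data known. Promoters came from RefSeq. Protein sequences were not used here. The result of 1 ductal marker is not reported here.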

Additional observations from a re-analysis of the deposited data

Results flagged for a closer look

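The change of 2 genes differed between the tissues by the test of the tissue by condition term. The change of Cxcl12 was higher in adipose tissue than in the pancreas by 2.67 on the log2 scale (adjusted p = 0.000262 in edgeR). It was lower in all 3 OA-AP than in both control libraries of the pancreas, and it overlapped between groups in fat. The change of Cxcr4, in adipose tissue minus pancreas, was -3.15 on the log2 scale (adjusted p = 0.00687 in edgeR). It was higher in all 3 OA-AP than in both control libraries of the pancreas and overlapped in fat. Adjusted p-values ranged over the alternatives from 3.12e-11 to 0.00309 for Cxcl12 and from 0.000177 to 0.0503 for Cxcr4. No group held the 4 samples that a test for a single outlying sample needs.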

How the results depend on the processing

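Of the 8 genes, 2 were called in the pancreas, against 6 with DESeq2, 4 without a filter on low counts, 1 with at least 10 counts in every sample and 1 to 4 with a library left out (1 without either control replicate 1 or 2, 4 without OA-AP replicate 3). In fat 6 were called, and 2 with at least 10 counts in every sample. The change differed between tissues for 2, against 1 with at least 10 counts in every sample and 1 to 2 with a library left out (1 without pancreas control replicate 2). Over all tested genes, pancreas calls were 3834 of 12884, against 3598 of 14431 with DESeq2 and 4487 of 23572 without a filter. With at least 10 counts in every sample, calls were 3493 of 10652 in the pancreas and 3440 of 14169 in fat. For the difference between tissues they were then 3684 of 10036. The 10-count filter tests fewer genes, and the cause of the other changes was not tested. The 3 counts of called members stayed within 1.5 times of their value in 37 alternatives and moved further in 10. Of the values of single genes, 1204 kept their direction and side of the threshold, 16 passed it newly, 72 no longer passed it and 24 turned sign.

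In the replicate block, 5 of the 8 genes were called in the pancreas (Cxcl1, Cxcl2, Cxcl5, Cxcl12 and Cxcr4), beside 4099 of 12884 tested genes. Within a tissue this block gives each replicate number its own term. The pancreas has no control replicate 3, so OA-AP replicate 3 did not inform the change there. Log2 fold changes were near those without that library, at 3.43 against 3.36 for Cxcl1 and 6.84 against 6.69 for Cxcl5. With the block of same-numbered samples, calls over all genes of the difference between tissues went from 3636 to 2156. Correlations of same-numbered control and OA-AP deviations were 0.0015 and -0.041 in the pancreas and -0.0058, 0.056 and -0.163 in fat. Between the tissues, same-numbered samples correlated at -0.011 and 0.0089 in the controls and at -0.012, 0.050 and 0.090 in OA-AP. Not every sample correlated best with its own number. With 2 pancreas controls the deviations mirror each other, so these correlations cannot decide whether the numbers pair the samples.

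Over all genes, pancreas calls went from 3834 to 6349 with library totals (92.0% higher in OA-AP against 54.5%), 2464 at a fold change of 2, and 1673 and 1476 without control replicates 1 and 2. Adipose calls went from 3981 to 2228 at a fold change of 2, and 32.1% against 48.1% were higher with library totals. The difference between tissues gave 6662 calls with library totals (5.88% against 50.7% higher in adipose tissue) and 2382 without pancreas control replicate 2.

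None of the values that turned sign passed the test under the alternative. In the pancreas, with library totals, the log2 fold change was 0.071 for Plvap and 0.51 for Csf1. With the replicate block it was -0.21 for Pf4 and -0.025 for Il1b. With a library left out, it ran from -0.21 (without control replicate 2) to 6.75 for Ackr1, and from -0.22 to 1.57 for Pf4 and -0.050 to 3.48 for Il1b, both lowest without OA-AP replicate 3. In fat, Cxcl12 was at -0.013 with library totals and from -0.045 (without OA-AP replicate 1; -0.016 without control replicate 1) to 0.35 with a library left out. The difference between tissues was 1.59 for Cxcl3, 1.60 for Cxcl5 and 0.50 for Csf3 with DESeq2, 0.73 for Cxcl5 with the block of same-numbered samples and -0.41 for Cxcr2 with library totals. With a library left out, it ran from -1.60 to 1.502 for Cxcl1, -6.56 to 1.88 for Cxcl2, -2.24 to 2.44 for Cxcl3, -2.28 to 1.58 for Cxcl5 and -3.30 to 1.10 for Csf3, each highest without pancreas OA-AP replicate 3, and from -4.39 (without pancreas control replicate 2) to 2.18 for Cxcr2.

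With 2 pancreas controls of 14380578 and 14716716 counts, the ligands, Cxcr2 and Csf3 held 0 or 1 counts each there, so that their fold changes in the pancreas have no firm base.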
